A study of Homo sapiens with 12 samples.

Results

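The S100 genes encode small calcium-binding proteins, and 9 of them from the S100A cluster on chromosome 1 were followed here: S100A2, S100A3, S100A4, S100A6, S100A10, S100A11, S100A13, S100A14 and S100A16. They were taken by name from the deposited table of 14029 genes, in which all 9 had values, and the set was chosen by measured values: S100A14 had one of the largest increases in the contrast described here. Together with S100A1, S100A5, S100G and S100Z, 13 of 21 S100 genes looked up were measured. The cells were ES-2, an established line of human ovarian carcinoma, with a short hairpin RNA (shRNA) against the non-receptor tyrosine kinase SRMS or with a control vector (PLKO). Values were used for 3 libraries labelled SRMS shRNA, with the genotype given as SRMS knockdown, and for 3 vector libraries, with the genotype given as WT. All 6 had received cisplatin, a platinum drug that crosslinks DNA, at 15 µM for 8 h, so the vector cells carry the drug treatment as well. The 6 libraries given PBS, of 12 in the series, are not analysed here, and no response to cisplatin was measured. The labels do not say which or how many hairpins were used, whether the cells were a clone or a pool, or whether replicates were cultured separately. The p-values therefore cover the spread among these libraries alone, and that spread may be technical.

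S100 proteins are built around a pair of EF-hands, helix-loop-helix folds that hold a calcium ion, and most work as dimers. On binding calcium they open a surface that docks onto partner proteins, such as annexins, myosins and the S100A6-binding protein CACYBP. Some are also released from cells and bind receptors, of which the receptor for advanced glycation end products (AGER, also called RAGE) is the best known. In carcinomas the family is known for uneven expression, with S100A2 and S100A14 tied to epithelial cells and S100A4 to motile, mesenchymal cells.

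All 9 genes lie on the minus strand of chromosome 1 in GRCh38. S100A10 (151982915 to 151994390) and S100A11 (152032506 to 152047907) form a separate pair, and the other 7 lie between S100A6 (153534599 to 153536244) and S100A13 (153618787 to 153631360). S100A14 (ENSG00000189334, 153614255 to 153616986) sits between S100A16 (153606886 to 153613145) and S100A13. The windows from 250 bases before to 50 bases after an annotated start of S100A14, of its neighbour S100A13 and of S100A6 are printed here because these genes span the range of the results, from the largest difference to almost none. They are RefSeq sequences of build GRCh38.p14 on the minus strand, 5′ to 3′, and capitals mark matches, on either strand, to TATAAA (the TATA box), GGGCGG (the GC box, overlapping matches included) or TGANTCA (the AP-1 site). They lie at chr1:153616276-153616575 for S100A14, chr1:153627456-153627755 for S100A13 and chr1:153535942-153536241 for S100A6.
S100A14: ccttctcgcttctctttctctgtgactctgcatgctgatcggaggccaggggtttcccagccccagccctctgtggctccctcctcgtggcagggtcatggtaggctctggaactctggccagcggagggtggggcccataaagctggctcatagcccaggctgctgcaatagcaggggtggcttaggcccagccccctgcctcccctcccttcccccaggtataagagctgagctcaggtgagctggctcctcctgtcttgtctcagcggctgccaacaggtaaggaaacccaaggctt
S100A13: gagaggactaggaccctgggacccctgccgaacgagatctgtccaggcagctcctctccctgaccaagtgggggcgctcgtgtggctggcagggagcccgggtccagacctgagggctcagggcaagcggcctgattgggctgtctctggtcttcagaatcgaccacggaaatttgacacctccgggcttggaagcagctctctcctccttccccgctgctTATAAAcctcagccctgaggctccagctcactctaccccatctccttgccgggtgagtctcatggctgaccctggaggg
S100A6: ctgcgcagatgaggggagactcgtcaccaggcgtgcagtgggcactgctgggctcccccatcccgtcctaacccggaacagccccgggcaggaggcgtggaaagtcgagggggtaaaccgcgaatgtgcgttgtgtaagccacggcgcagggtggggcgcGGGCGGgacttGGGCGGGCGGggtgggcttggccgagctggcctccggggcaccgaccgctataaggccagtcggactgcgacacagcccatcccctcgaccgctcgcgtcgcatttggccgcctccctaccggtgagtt
The S100A14 window held no exact match to the 3 motifs, and variants were not searched for. The windows of S100A14 and S100A6 both hold TATAAG, which differs from TATAAA in its last base. The S100A13 window held TATAAA with its first base at -29 relative to the start. The S100A6 window held 3 GGGCGG matches, of which a pair overlap, and had 31 CpG pairs, against 5 in that of S100A14, 11 in that of S100A13 and a median of 14 over 35116 windows. Over the windows of all 9 genes, TATAAA was found in 2, GGGCGG in 5 and TGANTCA in 2, against 4049, 15786 and 2707 of the 35116 windows of the same 300 bases. These starts lay 661, 734 and 253 bases from those of the transcripts used for length, so other starts may be in use in these cells.

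The recovered reads of the listed genes came to between 28009232 and 38072051 in the libraries labelled SRMS shRNA and between 29072793 and 56855428 in the vector libraries. Replicates 2 and 3 of each group lay closer to each other than to replicate 1: the mean chi-square per gene over genes with 200 to 5000 reads in a pair of libraries was 1.65 and 1.79 for replicates 2 and 3, and 3.55 to 5.07 for pairs with replicate 1. In genes with over 5000 reads in a pair, the mean was 2.63 and 2.47 for replicates 2 and 3, and 25.3 to 44.6 for pairs with replicate 1. The abundant S100A genes below fall in this range of reads. Replicates 2 and 3 still differed beyond counting error there, so all 3 were kept.

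The values are a signal, the reads of a gene divided by the library's effective size and scaled as CPM is. Dividing by the length in kilobases of 1 transcript a gene makes levels of different genes comparable, as far as that transcript is the one in use. For S100A13 it has 686 nt, while the annotated exons cover 2216 bases, so its place in the order may depend on this choice. On this scale the genes fell into an abundant and a scarce set in both groups. In the libraries labelled SRMS shRNA, S100A11 averaged 390.2 ± 50.1 per kilobase, S100A6 358 ± 6.71, S100A10 185 ± 14.8, S100A13 151 ± 2.32 and S100A16 144 ± 7.72 (mean ± SD, n = 3). The 4 scarce genes there were S100A14 at 7.27 ± 0.276, S100A2 at 4.99 ± 0.677, S100A3 at 0.771 ± 0.0409 and S100A4 at 0.66 ± 0.123. In the vector libraries the order was S100A6 at 368 ± 6.13, S100A11 at 276 ± 34.7, S100A10 at 149 ± 11.9, S100A16 at 112 ± 2.17, S100A13 at 98.4 ± 3.68, S100A2 at 4.68 ± 0.527, S100A14 at 2.15 ± 0.299, S100A4 at 1.14 ± 0.290 and S100A3 at 0.721 ± 0.326. Neighbours whose libraries overlapped, and which therefore cannot be ordered, were S100A11 with S100A6, S100A13 with S100A16 and S100A3 with S100A4 in the libraries labelled SRMS shRNA, and S100A4 with S100A3 in the vector libraries. S100A14 stood above S100A2 in the libraries labelled SRMS shRNA and below it in the vector libraries, with no overlap of their values in either group. The shares of the summed signal of the 9 genes moved too: S100A6 made up 23.9% to 26.0% in the libraries labelled SRMS shRNA and 30.3% to 32.4% in the vector libraries, and S100A14 0.863% to 0.935% against 0.289% to 0.373%.

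**Figure D1:**
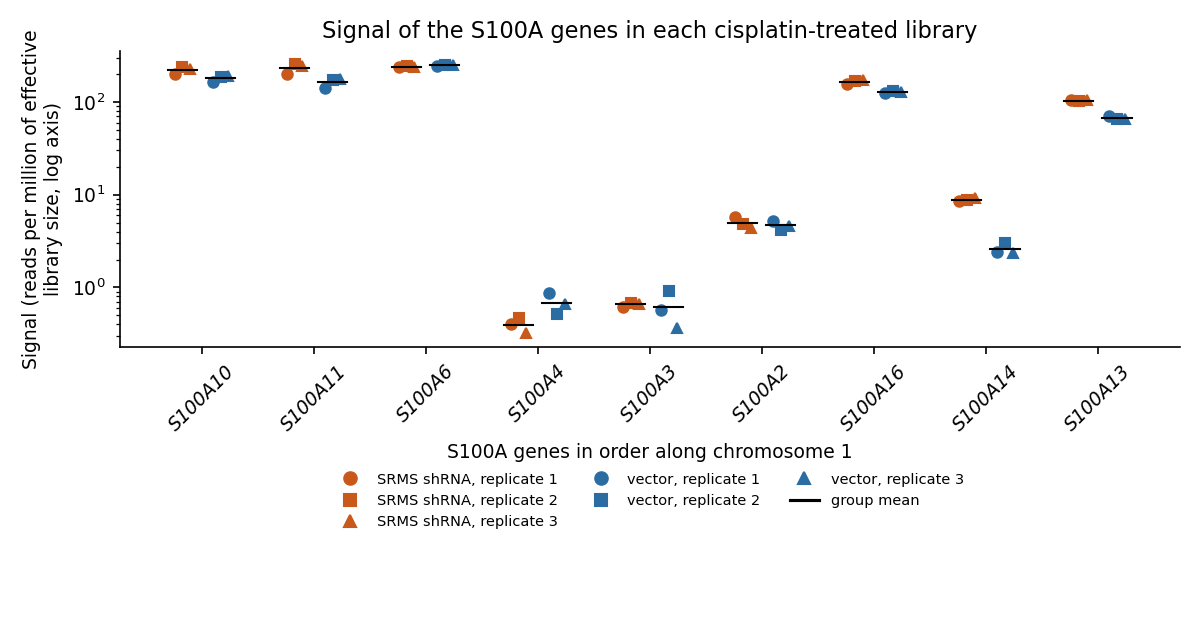
Signal of each S100A gene (reads scaled to effective library size as in CPM, log axis) in the 3 libraries labelled SRMS shRNA (orange) and the 3 vector libraries (blue), in chromosome order, with the replicate number by symbol and the group mean as a bar. The 5 abundant genes sit between 65.8 and 256, and S100A14 is the scarce gene whose groups stand far apart.

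The targeted gene went against the labels, since SRMS was not lower with its shRNA. It had signals of 0.328, 1.07 and 0.863 in the libraries labelled SRMS shRNA, against 0.0669, 0.306 and 0.819 in the vector libraries, so the groups overlapped. The log2 fold change, here and below the difference of mean log2(signal + 0.5) between libraries labelled SRMS shRNA and vector libraries, was 0.52 (SE 0.303, limma adjusted p = 0.168), and a two-sided exact permutation test gave p = 0.2, where 0.1 is the smallest possible. The same 0.52 had a limma adjusted p of 0.00782 with the replicate number as a block, toward more SRMS, but the block with the length and GC trend taken out gave 0.24 (limma adjusted p = 0.222). Without SRMS shRNA replicate 1 the log2 fold change was 0.79 (limma adjusted p = 0.0245), without vector replicate 3 it was 0.84 (limma adjusted p = 0.0281), and without replicate 1 of both groups it was 0.51 (limma adjusted p = 0.0331). With replicates 2 and 3 averaged it was 0.53 (limma adjusted p = 0.225), and by edgeR and DESeq2 on the recovered reads the adjusted p was 0.259 and 0.437. With so few reads the SRMS signal cannot check the knockdown, and directions below follow the labels.

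With a limma adjusted p under 0.05 as the call, 5 of the 9 were higher, where 26.6% of all genes tested were, and 1 was lower, where 30.2% were. Either call was made for 56.8% of all genes, and the groups did not overlap for 6 of the 9 genes and for 62.7% of all. The contrast is the one that chose the set, so nothing is read from these counts. Those higher were S100A10, S100A11, S100A13, S100A14 and S100A16, and S100A4 was lower. The median log2 fold change was 0.31 over the 9 genes and 0.00 over all genes tested. Over the shortest 2806 genes, to which the 9 belong, it was 0.23. In the blocked fit with the length and GC trend taken out, it was 0.04 over the 9 and -0.02 over all genes. Of the 9, 7 passed a filter of 1 on the mean log2 value, and S100A3 and S100A4 did not. Without replicate 1 of both groups the log2 fold changes were 1.58 for S100A14, 0.64 for S100A13, 0.50 for S100A11, 0.39 for S100A16, 0.31 for S100A10, 0.09 for S100A3, 0.06 for S100A2, -0.04 for S100A6 and -0.29 for S100A4, with 5 called higher and 0 lower. The counts of the other gene lists below without replicate 1 were 4 annexins higher and 0 lower, 8 partners higher and 5 lower, 4 plasminogen genes higher and 3 lower, 16 EF-hand genes higher and 8 lower, and 11 neighbours higher and 5 lower. The share of all genes called in that fit is not given here, so nothing is read from its counts.

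**Figure D2:**
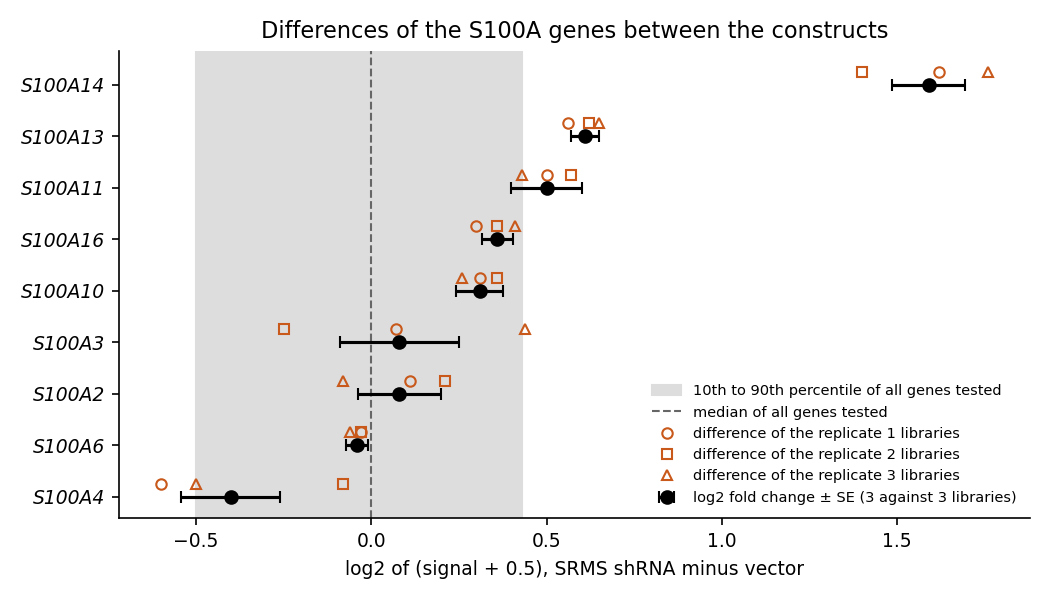
Log2 fold change of each S100A gene with its SE (black), and the differences between libraries of the same replicate number (orange), on the axis of log2(signal + 0.5), SRMS shRNA minus vector. The grey band runs from the 10th to the 90th percentile of all genes tested, -0.50 to 0.43, and S100A14, S100A13 and S100A11 lie above it. Among the shortest 2806 genes, which include every S100A gene shown, the same percentiles were -0.15 and 0.59. S100A11, at 0.50, lay between these, and S100A13, at 0.61, just above.

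S100A14, known from epithelia and able to act outside cells through RAGE, had the largest difference of the family. Its signal was 8.54, 8.83 and 9.21 in the libraries labelled SRMS shRNA, against 2.44, 3.03 and 2.37 in the vector libraries. Every library labelled SRMS shRNA lay above every vector library, and replicates within a group were close. The ratio of the group means was 3.39, and the log2 fold change was 1.59 (SE 0.104), the 3rd highest of the 14029 genes tested. Since this value chose the set, it is given without a p-value. It rests on 234, 321 and 288 reads, against 73, 139 and 136 reads, and the pseudocount lowers it: edgeR on the recovered reads gave 1.77. Here and below, bulk RNA cannot tell more RNA per cell from more cells that hold it.

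S100A13 and S100A16, which flank S100A14, were both higher and by less. S100A13, which takes part in the export of the growth factor FGF1, had signals of 104, 102 and 105 in the libraries labelled SRMS shRNA, against 70.4, 65.8 and 66.3 in the vector libraries. Its log2 fold change was 0.61 (SE 0.0400). S100A16, a member with weak calcium binding, had signals of 155, 167 and 172, against 125, 130.0 and 129, and a log2 fold change of 0.36 (SE 0.0432). For both genes the groups did not overlap. The exons of S100A13 share 235 bases, 10.6% of its exonic length, with S100A1 on the opposite strand and 24.2% with AL162258.1, a processed transcript, on its own strand. The library kit keeps strand, but whether the counting used it is not given in the sources used here, so S100A13 and S100A1 may share reads. S100A1 itself had 9.12, 7.89 and 7.71, against 6.72, 6.24 and 6.85, and a log2 fold change of 0.30 (SE 0.0900, limma adjusted p = 0.0169). This call ended without SRMS shRNA replicate 1, without vector replicate 2 and in the blocked fit with the length and GC trend taken out, each of which called 0 of the 4 other S100 genes. The other measured members of the family, S100G, S100A5 and S100Z, were scarce and did not pass the test, with log2 fold changes of 0.23, 0.19 and 0.05.

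S100A10 and S100A11, partners of annexins, were also higher. S100A10, which with annexin A2 forms a membrane complex that binds plasminogen, had signals of 203, 237 and 228 in the libraries labelled SRMS shRNA, against 163, 185 and 190.3 in the vector libraries. Its log2 fold change was 0.31 (SE 0.0670). S100A11, a partner of annexin A1, had signals of 198, 256 and 241, against 140.3, 172 and 179, and a log2 fold change of 0.50 (SE 0.101). In both genes the groups did not overlap, and replicate 1 was the lowest library of each group. Differences between libraries of the same replicate number were therefore closer together than the libraries were: 0.50, 0.57 and 0.43 for S100A11 and 0.31, 0.36 and 0.26 for S100A10, on the log2 scale. GENCODE lists 2 pseudogenes named after S100A11, whose reads the counting could have split, so its value is uncertain.

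S100A6, S100A2 and S100A3 had overlapping groups. S100A6 (calcyclin), among the most abundant of the family, had signals of 238, 246 and 239 in the libraries labelled SRMS shRNA, against 244, 252 and 249 in the vector libraries, and a log2 fold change of -0.04 (SE 0.0323). Its small difference took either sign with the scaling: it was 0.12, called higher, after alignment on the library medians, and -0.10, called lower, with quantile scaling. S100A2, a gene of basal epithelia, had 5.69, 4.89 and 4.35, against 5.22, 4.17 and 4.64, with a log2 fold change of 0.08 (SE 0.118). S100A3, best known from the hair cuticle, had 0.620, 0.687 and 0.671, against 0.569, 0.917 and 0.366, with a log2 fold change of 0.08 (SE 0.170) from 17 to 42 reads a library.

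S100A4 (metastasin), which binds the heavy chain of non-muscle myosin, was the gene called lower. Its signal was 0.401, 0.467 and 0.320 in the libraries labelled SRMS shRNA, against 0.870, 0.524 and 0.662 in the vector libraries, with no overlap. This rests on 10 to 17 reads a library, against 24 to 38. The log2 fold change was -0.40 (SE 0.141), and -0.73 by edgeR. The call ended in 8 of 17 alternatives, among them both count tests, alignment on the median (-0.24), and the fits without vector replicate 1 (-0.29), vector replicate 3 (-0.41) or SRMS shRNA replicate 3 (-0.33).

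Transcript length moved with the differences over the whole table, and all 9 transcripts are short. They run from 594 nt (S100A11) to 1218 nt (S100A14), inside the shortest 2806 genes (up to 1755 nt), whose median log2 fold change was 0.23, against -0.23 in the longest 2806. With the replicate block and the trend on transcript length and GC content taken out, the log2 fold changes were 1.34 for S100A14, 0.24 for S100A13, 0.12 for S100A11, 0.07 for S100A16 and 0.04 for S100A10. In that fit S100A10 was no longer called, and S100A6, at -0.43, and S100A4, at -0.77, were called lower. The values of S100A2 and S100A3 were then -0.22 and -0.27. Of the 5 genes called higher, S100A14 thus stood at 1.34, and the other 4 at 0.24 or less. The part of length in the results was not tested beyond this. The share of all genes called in that fit is not given, so nothing is read from its counts, here or below.

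**Figure D3:**
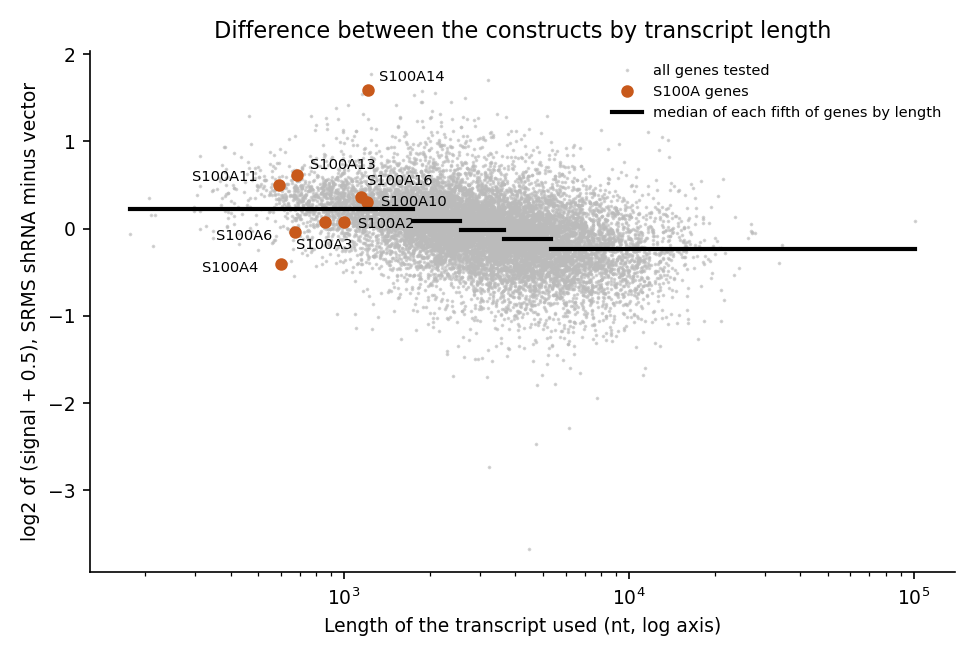
Log2 fold change (SRMS shRNA minus vector) against the length of the transcript used (log axis) for all genes tested (grey) and the 9 S100A genes (orange), with the median of each of 5 equal bins of genes by length (black lines). The S100A genes lie among the shortest transcripts, where the median is 0.23, and S100A14 lies far above it.

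Genes around the cluster did not share 1 direction. Of 26 other genes measured from 500 kb below S100A10 to 500 kb above S100A13 (151482915 to 154131360), 11 were higher and 5 lower by limma. Of all genes tested 26.6% were higher and 30.2% lower, and the median of the 26 was 0.14 on the log2 scale. The gene nearest to S100A13 and S100A1 on the far side, CHTOP, had signals of 71.4, 67.7 and 63.1, against 67.9, 65.3 and 66.1, with overlapping groups (log2 fold change 0.02, SE 0.0490, limma adjusted p = 0.757). Further out lay the strongest decreases: INTS3, a subunit of Integrator and of a single-stranded DNA-binding complex, had 25.9, 24.1 and 24.0, against 67.6, 60.8 and 65.1 (log2 fold change -1.37, limma adjusted p = 8.86e-08). GATAD2B, a subunit of the NuRD chromatin complex, fell by 1.27 on the log2 scale (limma adjusted p = 9.24e-06). RPS27, a ribosomal protein, ILF2, an RNA-binding protein, JTB and NUP210L, a nucleoporin-like gene, rose by 0.45, 0.19, 0.27 and 0.72 on the log2 scale. Among the epidermal genes between S100A11 and S100A6, FLG (filaggrin), the most abundant of those measured, had 11.9, 9.65 and 10.2, against 14.6, 12.5 and 11.7 (log2 fold change -0.28, limma adjusted p = 0.0372), with overlapping groups. With the length and GC trend taken out under the block, 6 of the 26 were higher and 5 lower, and with alignment on the median 17 were higher and 4 lower. Of all 14029 genes, alignment on the median called 6254 higher and 2510 lower, and quantile scaling 3971 and 3683. The counts of the lists below under these scalings stand against those.

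**Figure D4:**
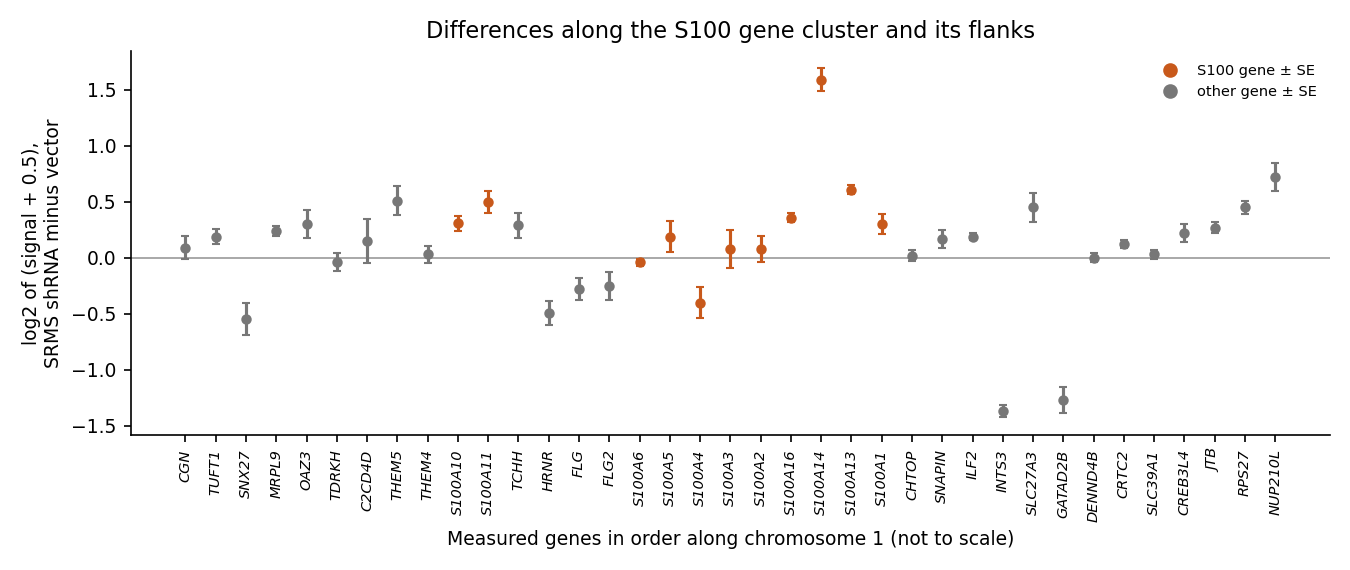
Log2 fold change with SE (SRMS shRNA minus vector) of every measured gene across the S100 cluster and 500 kb on either side, in chromosome order and not to scale, with S100 genes in orange and other genes in grey. S100A14 at 1.59 stands between S100A16 and S100A13, and INTS3 and GATAD2B are the lowest.

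Annexins bind membranes in a calcium-dependent way and hold the best-known partners of S100 proteins. Of 11 measured, 5 rose and 0 fell by limma, where 26.6% and 30.2% of all genes did. Their median was 0.11 on the log2 scale. ANXA2, the partner of S100A10, had signals of 1149, 1168 and 1148 in the libraries labelled SRMS shRNA, against 1131, 1141 and 1152 in the vector libraries (log2 fold change 0.02, SE 0.0305, limma adjusted p = 0.664). ANXA1, the partner of S100A11, rose to 481 ± 7.82, against 417 ± 7.89 (log2 fold change 0.20, limma adjusted p = 0.000342). On the log2 scale ANXA4 rose by 0.42 and ANXA5 by 0.11, and ANXA8L1, at a signal under 1 and near-identical to ANXA8, by 0.59. The count of 5 was 8 with alignment on the median and 3 with quantile scaling, where 1 was lower. With the length and GC trend taken out under the block, 3 were higher and 3 lower, and the median was -0.02.

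Of 22 measured partners and receptors, 7 rose and 4 fell by limma, where 26.6% and 30.2% of all genes did. Their median was 0.03 on the log2 scale. AGER, the receptor RAGE, rose to 24.3, 25.7 and 25.3, against 17.1, 16.5 and 16.7 (log2 fold change 0.57, SE 0.0548, limma adjusted p = 1.5e-05). CTSB, a lysosomal protease that binds the S100A10 complex at the cell surface, rose by 0.35 on the log2 scale (limma adjusted p = 7.59e-06). DLC1, a protein that S100A10 binds, fell to 51.4, 48.8 and 48.1, against 96.6, 95.8 and 93.3 (log2 fold change -0.94, limma adjusted p = 1.58e-07). MYH9, the myosin heavy chain that S100A4 binds, had 755, 693 and 690.3, against 806, 784 and 766 (log2 fold change -0.14, limma adjusted p = 0.0146). CACYBP, the partner of S100A6, rose by 0.11 on the log2 scale (limma adjusted p = 0.0193), and FGF1, exported with S100A13, differed by 0.08 (limma adjusted p = 0.601) at signals of 1.96 and 1.83. With alignment on the median 13 were higher and 2 lower, where 6254 and 2510 of all 14029 genes were. Under the block with the length and GC trend taken out, 11 were higher and 6 lower.

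Among 9 measured genes of plasminogen activation, the process that the S100A10 and ANXA2 complex promotes, 4 rose and 2 fell by limma. Of all genes 26.6% rose and 30.2% fell, and the median of the 9 was 0.02 on the log2 scale. SERPINE2, an inhibitor of plasminogen activators and thrombin, rose to 120, 129 and 134, against 53.4, 57.4 and 58.1 (log2 fold change 1.17, SE 0.0506, limma adjusted p = 1.5e-07). PLAUR, the urokinase receptor, had 389, 417 and 415, against 287, 303 and 302 (log2 fold change 0.45, limma adjusted p = 6.85e-06). PLAT, tissue plasminogen activator, rose by 0.33, and PLGRKT, a plasminogen receptor, by 0.51, both on the log2 scale. The activator urokinase itself, PLAU, had 253, 251 and 244, against 251, 258 and 253 (log2 fold change -0.03, limma adjusted p = 0.521). With alignment on the median 7 were higher and 0 lower. Both with quantile scaling and with the length and GC trend taken out under the block, 4 were higher and 5 lower.

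Calcium-binding EF-hand proteins outside the family also went both ways. Of 31 measured, 15 rose and 6 fell by limma, where 26.6% and 30.2% of all genes did, with a median log2 fold change of 0.11. Alignment on the median gave 21 higher and 3 lower, and the blocked fit with the length and GC trend taken out gave 12 higher and 8 lower, with a median of 0.02. CALM2, a calmodulin gene, rose to 882 ± 24.6, against 644 ± 17.8, and CETN3, a centrin of the centrosome, rose by 0.33 on the log2 scale. EFHD2 fell to 72.3 ± 2.64, against 139.8 ± 2.89 (log2 fold change -0.95, limma adjusted p = 1.18e-07), and NUCB1, a Golgi calcium-binding protein, fell by 0.88 on the log2 scale.

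**Figure D5:**
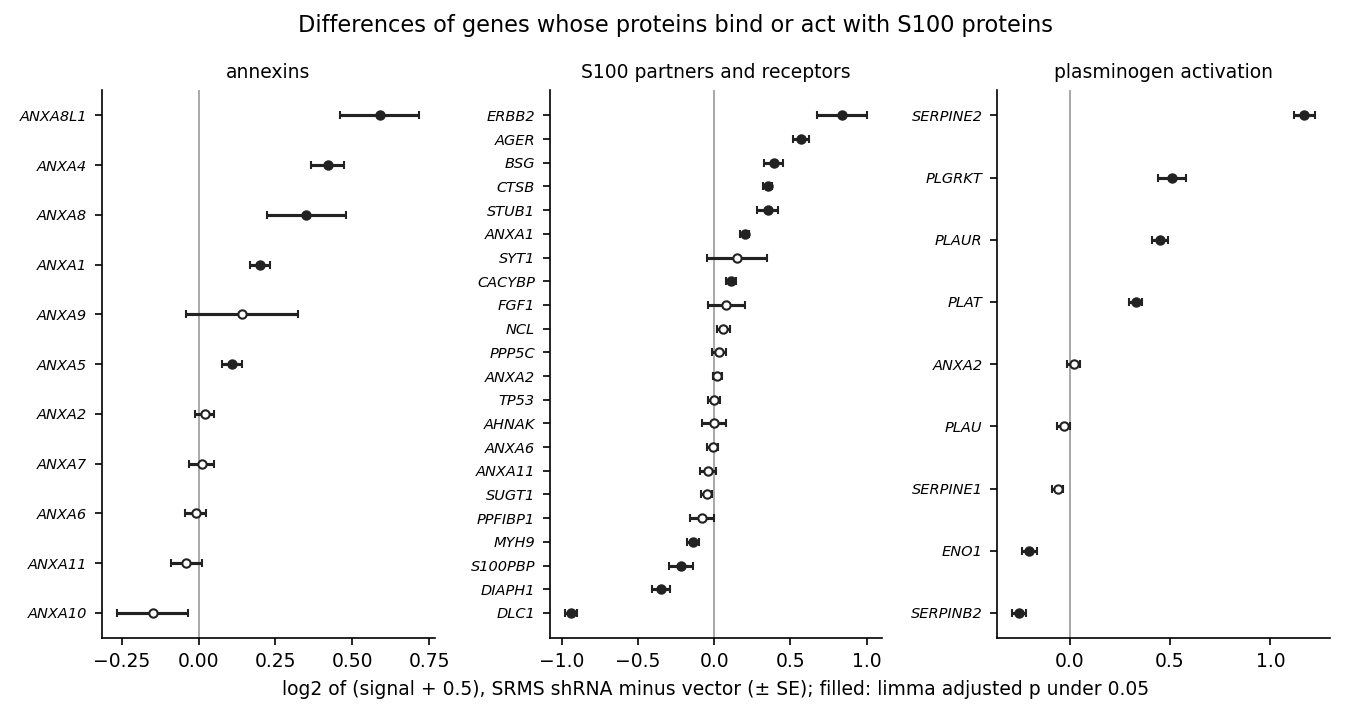
Log2 fold change with SE (SRMS shRNA minus vector) of the measured annexins, S100 partners and receptors, and genes of plasminogen activation. Filled points had a limma adjusted p under 0.05; DLC1 and SERPINE2 lie farthest from 0, and ANXA2 lies at 0.02.

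The genes whose 6 values were most like those of S100A14 were MAP3K7CL, APOE, MMP10, PYGM and GYPC. The measure was the Euclidean distance between centred log2 values over the 6 libraries, among 10258 coding genes whose mean log2 value was 2 or more, and it was 0.218 for MAP3K7CL, 0.294 for APOE, 0.332 for MMP10, 0.333 for PYGM and 0.346 for GYPC. MAP3K7CL had signals of 27.1, 27.1 and 28.1, against 8.46, 9.26 and 9.24, and was the more abundant gene in both groups. All 5 lie on chromosomes other than chromosome 1. Their log2 fold changes ran from 1.53 (MMP10) to 1.77 (GYPC), beside 1.59 for S100A14. The distance includes the contrast that chose the set, so the likeness is a description of that contrast and no separate result.

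Markers of cell identity moved beside the S100A genes, and their part in the results was not tested. Of 15 epithelial markers 8 were measured, and by limma 6 rose and 1 fell, where 26.6% and 30.2% of all genes did. KRT7, KRT18 and KRT8 were abundant, at 543, 1015.5 and 105, against 697, 875 and 92.9, while CLDN7, OVOL1, ELF3 and RAB25, which rose, had signals of at most 1.18 in any library. The summed signal of the epithelial list was 1621 to 1692 in the libraries labelled SRMS shRNA and 1638 to 1697 in the vector libraries, and EPCAM, CDH1, GRHL2 and ESRP1 were not among the genes tested. Of 12 mesenchymal markers, all measured, 4 rose and 7 fell, with summed signals of 8246 to 9016, against 7392 to 7957, mostly from VIM (vimentin) at 6030.3 to 6869, against 5010.5 to 5587. SPARC and SNAI1 rose by 0.63 and 0.81 on the log2 scale, and COL1A1 and ZEB1 fell by 0.60 and 0.47. Of 11 leukocyte markers 5 were measured and 3 rose, with CD14 at 3.24 ± 0.370, against 0.879 ± 0.197, LYZ at 0.419, against 0.136, and summed signals of 61.5 to 65.8, against 50.1 to 52.9, mostly from CD68. PTPRC, CD3E, S100A8 and S100A9 were not among the genes tested. Of 6 ovarian carcinoma markers 3 were measured, with PAX8 near 0 (0.241 ± 0.108, against 0.136 ± 0.0848), and WT1 and ARID1A lower, by log2 fold changes of -0.80 and -0.91.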

How the data were processed

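Poly(A) RNA of ES-2 cells was made into stranded TruSeq libraries and sequenced in pairs on a NovaSeq, per the labels' protocols; the submitters' processing notes name FastQC, cutadapt, HISAT2, StringTie, edgeR and GRCh38, without versions or settings. The deposited values are called log CPM but are a linear signal: reads divided by an effective library size, scaled as CPM is. At least 99.99% of values in each library were whole reads within 0.1. Of 14042 rows, 13 Y copies were left out; 14007 of 14029 genes had a symbol. Lengths and positions come from GENCODE 29 (1 coding, principal, longest transcript a gene).

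The plan stood as written: limma 3.58.1 (R 4.3.3) with a trend on log2(signal + 0.5), Benjamini-Hochberg over all genes, threshold 0.05. Members and lists were chosen with earlier results of these data known. The limma calls of the members come from the contrast that chose them, so they are a description and not evidence. Of each list the 4 genes with the smallest adjusted p are named (6 for neighbours), with the 5 genes most like S100A14; other partners of single members, CHTOP, FLG, AL162258.1, OVOL1, ELF3, RAB25, VIM and PLAU were named after their values were seen. Deviations from group means correlated at 0.309, 0.106 and 0.120 between same-numbered libraries. Replicates 2 and 3 crossed gave 0.113 and 0.114, so the numbers matched libraries for replicate 1 alone. The main fit therefore had no block, and the replicate block was an alternative. The fit was also run on simulated data, as a check of the code alone. Those data lacked the distance of replicate 1 from replicates 2 and 3, so they do not bear on the calls.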

Additional observations from a re-analysis of the deposited data

How the results depend on the processing

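Alternatives were 2 scalings, a filter, 2 pseudocounts, no trend, edgeR 4.0.16 and DESeq2 1.42.0 on recovered reads, the replicate block with and without the length and GC trend, replicates 2 and 3 averaged, replicate 1 of both groups left out and each library left out. The 5 S100A genes called higher kept a positive log2 fold change in all 18 alternatives, from 0.04 (S100A10) to 1.77 (S100A14). No S100A gene was called lower with alignment on the median, the filter to a mean of at least 1, edgeR, DESeq2, averaged replicates or without replicate 1 of both groups (0 each), and 2 were with quantile scaling and in the blocked fit corrected for length and GC. Alignment on the median, which moved the median of all genes by 0.16, gave 6254 genes higher and 2510 lower, against 3736 and 4233. The same alignment gave 8 annexins higher, 13 partners higher and 2 lower, 7 plasminogen genes higher and 0 lower, 3 EF-hand genes lower and 17 neighbours higher. The count tests gave 3893 higher and 4165 lower by edgeR and 3585 and 3790 by DESeq2. Quantile scaling gave 3 annexins higher and 1 lower, and 4 plasminogen genes higher and 5 lower. The filter gave 3 annexins higher, and no trend gave 2 partners lower. The replicate block gave 1 annexin lower and 0.52 for SRMS (limma adjusted p = 0.00782), and it changed no other count by over 1.5 times. The blocked fit corrected for length and GC gave 3 annexins higher and 3 lower, and 11 partners higher and 6 lower. It also gave 6 neighbours higher and 5 lower, and 4 plasminogen genes higher and 5 lower. Averaged replicates gave 3 annexins higher, 6 neighbours higher and 2 partners lower. SRMS had 0.51 when replicate 1 was dropped from each group. With any 1 library dropped, the values were 0.23 to 0.84 for SRMS, 0 to 1 S100A genes lower, 3 to 4 annexins higher, 7 to 10 neighbours higher and 2 to 4 partners lower. The cause of these shifts was not tested. S100A3 and S100A4, with 10 to 42 reads a library, are limited by depth.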
